A study of Homo sapiens with 27 samples.

Results

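The transcriptome of untreated Ewing sarcoma cells was described from the 3 RM82 libraries labelled DMSO, taken by their treatment label out of 27 samples in the series. RM82 is an established human Ewing sarcoma cell line, and the cells received the vehicle dimethylsulfoxide (DMSO) for 24 h with no other agent. The labels give Trizol for the RNA extraction and the study's methods a column kit, and which was used for these libraries was not given in the sources used here. Per the methods, RNA was captured by its poly(A) tail, tagged at either end with a unique molecular identifier (UMI) built from blocks of 3 identical bases, and read as full-length cDNA on an Oxford Nanopore PromethION device. The labels name a kit for Illumina sequencing instead, but the files count transcripts, which the nanopore route of the methods yields, while the Illumina route counted genes. The cells were the control arm of an experiment with a splicing kinase inhibitor, made in a study of UMI error correction. The libraries are named DMSO1, DMSO2 and DMSO3 by their replicate numbers. The study's reporting summary gives at least 3 independent experiments as the rule, unless a figure legend says otherwise. The labels do not state whether these libraries came from separate cultures, so the spread between them may be partly technical. All of them come from 1 cell line.

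Ewing sarcoma is a tumour of bone and soft tissue in young people that is driven by a fusion of an RNA-binding FET protein, most often EWSR1, with an ETS transcription factor, most often FLI1 and less often ERG. The fusion protein binds repeats of the bases GGAA and turns them into enhancers, so that a set of target genes such as NR0B1, CCND1 and CAV1 is switched on, while genes of mesenchymal differentiation are repressed. Pathologists recognise the tumour by the surface protein CD99 and by the transcription factor NKX2-2. The cells depend on signalling through the insulin-like growth factor 1 receptor and divide rapidly.

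The depth of the libraries was modest. The deposited counts summed to 416352 in DMSO1, 523456 in DMSO2 and 372876 in DMSO3, spread over 52295, 56062 and 48413 listed transcripts. A limit of 3 counts, the most that a count of 0 allows, stood for 7.21, 5.73 and 8.05 counts per 1000000 counts of the library (CPM) in the same order, and it covers counting error only. Of the listed transcripts, 37.1%, 35.4% and 38.9% had a single count. After summing to genes, 16717 genes had at least 1 count in some library and 8316 had 3 or more counts in every library, which is called detected below. Of the detected genes, 7949 were protein coding, 201 were pseudogenes and 164 were long noncoding RNA genes. The annotation holds 20046 protein-coding genes, so 7949 of 20046 is the share to set beside the detected members of each list below. Whether the transcript set mapped to held all long noncoding RNAs was not given, as described below. Few genes were abundant, with 94 above a mean of 1000 CPM and 1912 genes between 100 and 1000 CPM. The 25 most abundant genes held 8.22% of all counts and the 1000 most abundant held 51.2%.

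A gene's level can be read in 2 ways in these files, and both are given here. The authors kept secondary alignments when mapping to transcripts, so a molecule that matches several transcripts of a gene may have been counted on each of them. CAV1 shows the pattern. Its transcripts ENST00000341049, ENST00000393467, ENST00000405348 and ENST00000614113 had 266, 267, 256 and 261 counts in DMSO1. In DMSO2 the same transcripts had 498, 498, 496 and 498 counts, and in DMSO3 they had 310, 299, 303 and 297. The sum over transcripts, 1096, 2064 and 1288 counts, is therefore about 4 times the count of any of them, and how many molecules lie behind it cannot be told from the counts. The summed CPM is the main measure below, and the CPM of the most abundant transcript alone is given for some of the leading genes and in some places where it turns an order. That second level does not add up the transcripts of a gene, but it can still hold molecules that were also counted on another gene. The library total behind every CPM would include any repeated counts. Errors in a UMI can still split a molecule into several counts on either scale. CPM was not divided by length, so an order by CPM is an order of counts and not of molecules per length, and values per kilobase are named as such.

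The genes with the highest summed CPM encode proteins of the cytoskeleton, chromatin, protein folding, translation and glycolysis. Orders are given among identifiers that matched the annotation, since 2 unmatched transcripts, described below, held 0.630% and 0.519% of all counts on average and so more than most genes. DPYSL2, a microtubule-binding protein of axon growth, stood first of the matched genes with 5858, 6509 and 4860 CPM in DMSO1, DMSO2 and DMSO3 (5742 ± 831, mean ± SD, n = 3). It was lowest in DMSO3 and highest in DMSO2. ANP32E, a histone chaperone that removes the variant H2A.Z, had 4890, 6199 and 5248 CPM. YWHAE, a 14-3-3 adaptor protein, had 5322, 3433 and 5922 CPM, with DMSO2 clearly below the other libraries. EEF1A1, which delivers aminoacyl-tRNA to the ribosome, had 3946, 7103 and 3280 CPM. HSPA8, the constitutive HSP70 chaperone, had 3821, 6014 and 2719 CPM. For both EEF1A1 and HSPA8 the value of DMSO2 was far above the others, and the mean without it was 3613 CPM for EEF1A1 and 3270 CPM for HSPA8.

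The remaining members of the top 25 lay between 1937 and 4126 CPM on average. HSP90AA1 and HSP90AB1, the inducible and constitutive cytosolic HSP90 chaperones, had means of 4126 ± 339 and 2918 ± 730 CPM. ACTB (cytoplasmic actin) had 4096 ± 1241 CPM, TPM3 (a tropomyosin) had 4005 ± 414 CPM and TUBA1B (an alpha tubulin) had 1937 ± 332 CPM. CDC42, a small GTPase that shapes the actin skeleton, had 2852 ± 431 CPM. The glycolytic enzymes GAPDH, LDHB and ENO1 had 3695 ± 320, 2844 ± 446 and 2001 ± 367 CPM. Genes of chromatin and the nucleolus followed, with HMGB1 at 2653 ± 668, SET at 2519 ± 182 and NPM1 at 2478 ± 271 CPM. TBL1XR1, a subunit of the NCoR corepressor complex, had 3918 ± 540 CPM. The ribosomal protein genes RPLP0, RPL7 and RPL4 had 2681 ± 390, 2500 ± 330 and 2264 ± 247 CPM, and the splicing factor gene SRSF6 had 1986 ± 600 CPM. CAV1 was the only member of the Ewing lists in this layer, and by the most abundant transcript alone it stood 35th. Many neighbours in this order differed by less than their SDs, as the plot of the 25 most abundant genes shows.

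**Figure D1:**
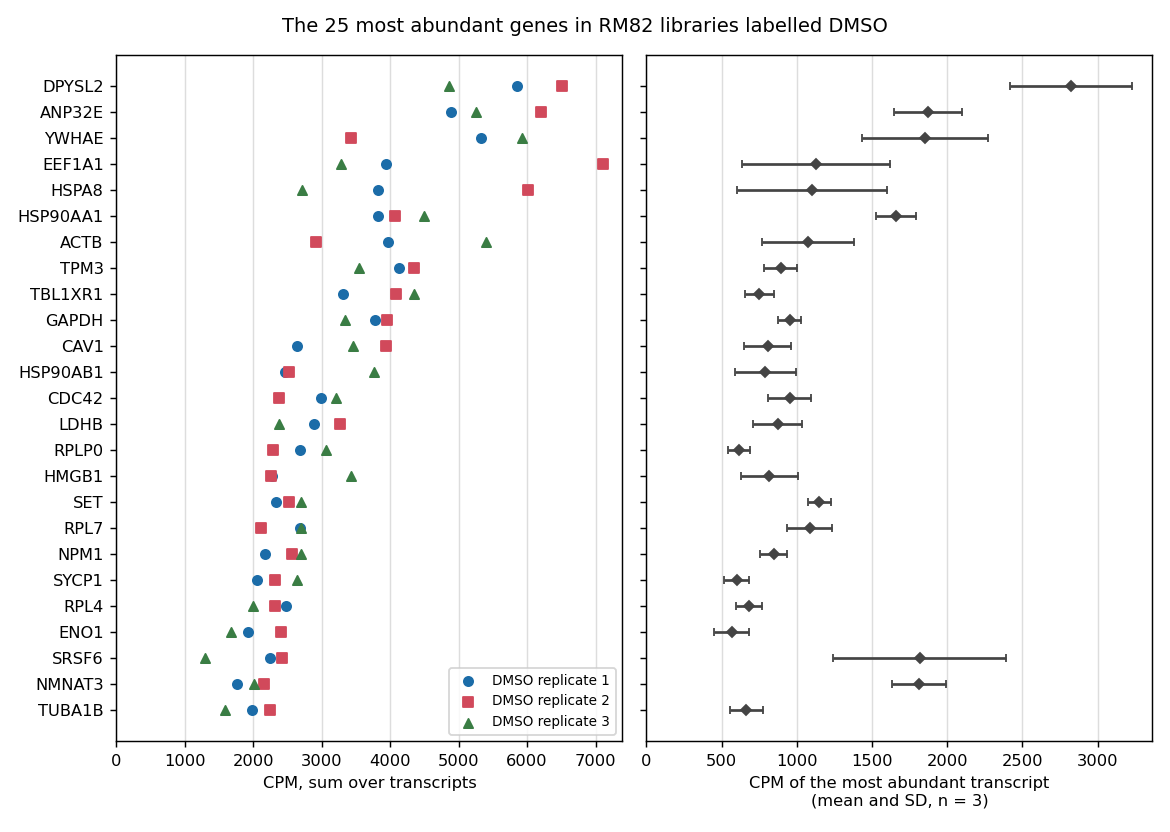
The 25 genes with the highest mean summed CPM. The left panel gives each library's CPM summed over transcripts and the right panel the mean CPM and SD (n = 3) of the most abundant transcript alone, both on linear axes from 0. EEF1A1 and HSPA8 reach 7103 and 6014 CPM in DMSO2 and lie at or below 3946 CPM in the other libraries, while SRSF6 and NMNAT3, with most of their count on a single transcript, stand higher in the right panel than their neighbours.

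The order depended on how a gene was measured, and 13 of the 25 genes were also among the first 25 by the most abundant transcript. Among matched transcripts DPYSL2 stayed first on that scale with 2820 ± 405 CPM, followed by the mitochondrial gene MT-ND4 with 1932 ± 259, ANP32E with 1872 ± 223, YWHAE with 1853 ± 417 and SRSF6 with 1817 ± 577 CPM. EEF1A1 fell back to 1127 ± 489 CPM because its count was spread over several transcripts. With each transcript's count divided by its length and the result scaled so that every library had the same total, GAPDH came first at 6057 ± 758, then YWHAE at 5971 ± 1448 and ACTB at 5880 ± 1691 per kilobase, 3 genes whose SDs overlap. On the scale per kilobase 13 of the 25 genes were again within the first 25, and DPYSL2 stood 28th.

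Sequence shared with other genes limits some of these levels. Of the 31-base words of the most abundant EEF1A1 transcript, 43.4% also occur in transcripts of other genes, above all the pseudogene EEF1A1P5. For HSP90AA1 the share was 39.5%, for HSP90AB1 41.6%, for HSPA8 45.0% and for RPL7 59.6%. The share was 72.8% for GAPDH, 73.3% for RPLP0, 74.0% for NPM1 and 75.5% for LDHB. Molecules of these genes and of their near copies may thus be split between them. TUBA1B had 93.4% of its words in other genes, with 70.3% in its antisense gene TUBA1B-AS1, and its level is uncertain too. The share was 0.2% for DPYSL2, 0.1% for ANP32E and 0.0% for CAV1. NMNAT3, an NAD synthesis enzyme with 1978 ± 195 CPM, had 55.1% of its words in 664 other genes, and 91.6% ± 0.385 (SD, n = 3) of its count lay on the single transcript ENST00000645507 of 6881 bases. The NMNAT3 level is uncertain for that reason.

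SYCP1, a protein of the synaptonemal complex that is normally confined to meiotic germ cells and is known as a cancer-testis antigen, was among the 25 with 2054, 2323 and 2642 CPM (2339 ± 294). Its most abundant transcript shares none of its words with other genes (0.0%). That transcript, ENST00000369522, is the MANE Select form at chr1:114854863-114995370 on the plus strand (GRCh38) with 32 exons and a length of 3462 bases, and had 217, 313 and 255 counts (601 ± 81.4 CPM). ENST00000369518, also with 32 exons, had 224, 313 and 244 counts. DMSO1 was the lowest library for the summed CPM and DMSO3 the highest. SYCP1 is among the genes called below as differing between libraries by more than counting error of the sums. The transcripts of SYCP1 and NMNAT3, like those of SRSF6 in the plot of transcript shares, were chosen for display after the values were seen.

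Ribosomal protein genes, the longest of the gene lists used here, had the largest sum among them. All 77 annotated genes outside the Y chromosome were detected, and they summed to 43520 CPM in DMSO1, 34980 in DMSO2 and 53240 in DMSO3 (43910 ± 9133). DMSO2 was the lowest library for 65 of them and DMSO3 the highest for 67. By CPM, RPLP0 was the highest and RPL39 the lowest with a mean of 48.3 CPM, while on the scale per kilobase RPL28 (171) and RPS9 (190) lay below RPL39 (201). By the most abundant transcript alone RPL7 (1087 CPM) stood above RPLP0 (615 CPM). The 6 genes of the translation elongation list, which holds TPT1 beside elongation factor genes, were all detected. They summed to 6418, 9374 and 5999 CPM, of which EEF1A1 made up 65.8%. Within this list EEF1G had 1048 ± 93.9 CPM, TPT1 465 ± 198, EEF1D 463 ± 74.3, EEF2 279 ± 50.9 and EEF1B2 233 ± 98.9 CPM. Unlike EEF1A1, TPT1 was lowest in DMSO2, with 495, 254 and 646 CPM. EEF1G overlaps the unnamed gene ENSG00000255508, whose counts of 427, 597 and 360 nearly repeat the 428, 602 and 360 of EEF1G, so the molecules of this pair could not be told apart.

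Many genes of the translation machinery begin their transcripts with a C followed by a run of pyrimidines, the 5′ terminal oligopyrimidine motif through which their translation is tied to growth signals. Start windows of 3 genes described above and of GAPDH, a gene without the motif, are shown to make this feature visible. The windows are 30 bases long, from RefSeq on GRCh38.p14, with 20 bases before the start and 10 from it, written 5′ to 3′ on the gene's strand, and the capitals mark the first 5 transcribed bases.
EEF1A1, chr6:73521023-73521052, minus strand: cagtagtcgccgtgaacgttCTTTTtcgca
EEF2, chr19:3985454-3985483, minus strand: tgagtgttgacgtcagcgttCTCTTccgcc
RPLP0, chr12:120201102-120201131, minus strand: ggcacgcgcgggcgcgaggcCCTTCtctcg
GAPDH, chr12:6535244-6535273, plus strand: tgcgcagcgggtgcatccctGTCCGgatgc

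A C at the annotated start followed by 4 bases that are each C or T was searched for on the gene's strand only. It was found in 42 of 62 ribosomal protein genes with a promoter sequence (67.7%) and in 3 of 5 genes of the elongation list, which includes TPT1. The share was 4.05% of all 27195 promoters outside the Y chromosome and 5.82% of the 6532 promoters of detected genes. It was found in none of 16 glycolysis genes and none of 20 genes of the Ewing activated list with a sequence. The match is a description of the annotated start and not a measure of translation.

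Of the FET and ETS genes from which Ewing fusions are built, 4 of 8 were detected. EWSR1, the FET gene found in most Ewing fusions, had 78, 87 and 42 counts or 187, 166 and 113 CPM, with DMSO3 the lowest. TAF15, another FET gene, had 91.3, 42.0 and 48.3 CPM. ERG, the ETS partner found in a minority of Ewing tumours, had 38, 52 and 38 counts. These are 91.3, 99.3 and 102 CPM (97.5 ± 5.55), and the 3 libraries were nearly level. The more common partner FLI1 had no count in any library, which allows up to 7.21, 5.73 and 8.05 CPM, and the same holds for FEV. ETV1 and ETV4 had 3 and 4 counts in DMSO1 and none elsewhere.

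The counts on ERG lay on its 10 listed transcripts, all of a protein-coding type, out of 15 annotated. ENST00000398897, at chr21:38380027-38584900 on the minus strand, had 7, 8 and 6 counts. The MANE Select transcript ENST00000288319, at chr21:38380036-38498477 on the same strand, had 3, 10 and 7 counts. Of the EWSR1 counts, 18.8% ± 4.98 lay on the MANE Select transcript ENST00000397938, at chr22:29268268-29300521 on the plus strand with 17 exons, and 85.0% of all EWSR1 counts lay on protein-coding transcripts. The transcripts mapped to were those of annotated genes. A fusion molecule has no identifier of its own there, and counts on EWSR1 or ERG cannot be split into fused and unfused RNA. ERG falls under the 50-count limit for isoform shares, and its transcripts were chosen after the values were seen.

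Of 26 genes that the fusion is known to activate, 14 were detected, 5 had no count in any library and 7 lay between. Over all annotated protein-coding genes 7949 of 20046 were detected, and whether the list differs from that share was not tested. The list summed to 4655, 6188 and 5919 CPM, and CAV1 made up 59.8% of it. By the most abundant transcript alone its part was smaller, with 807 CPM of a list sum of 2063 CPM on average. CAV1, the coat protein of caveolae, had 2632, 3943 and 3454 CPM. CCND1, the cyclin D1 gene that drives entry into S phase, had 677, 502 and 684 CPM, lower in DMSO2 than in the others. Its count lay almost wholly on the MANE Select transcript ENST00000227507 at chr11:69641156-69654474 on the plus strand, with 268, 245 and 232 counts (93.1% ± 2.03). BCL11B, a zinc finger transcription factor, had 413, 447 and 625 CPM, divided evenly between the 2 transcripts ENST00000357195 and ENST00000345514 (50.1% ± 0.327 and 49.1% ± 0.706).

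The other detected activated genes were lower. LOXHD1, a gene of inner ear hair cells, had 58, 158 and 79 counts or 139, 302 and 212 CPM, with DMSO1 below the others. SOX6, a transcription factor of cartilage and neural progenitors, had 36, 116 and 64 counts or 86.5, 222 and 172 CPM, in the same order. ID2 (an inhibitor of basic helix-loop-helix factors) had 166 ± 43.6 CPM, and EZH2 (the histone H3 lysine methyltransferase of Polycomb) had 134, 172 and 147 CPM. IL1RAP and STEAP1, both surface proteins, had 96.4 ± 10.2 and 90.0 ± 18.0 CPM. Of the 31-base words of the most abundant STEAP1 transcript, 36.3% also occur in STEAP1B, so the STEAP1 level is uncertain. VRK1, a chromatin kinase, had 85.1 ± 7.12 CPM, SLCO5A1, a transporter, 55.8 ± 3.10 CPM and ADGRG2, an adhesion receptor, 31.6 ± 23.9 CPM. ADGRG2 had 7, 31 and 7 counts, so its mean rests on DMSO2. XG and PRKCB closed the detected members at 21.3 ± 7.34 and 19.8 ± 8.03 CPM.

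NR0B1, an orphan nuclear receptor gene and a widely used readout of the fusion, had 1, 6 and 3 counts, at or under the limit in DMSO1 and DMSO3. LIPI had 6, 6 and 0 counts, and PAPPA, KCNN1, NPY1R, IGF1 and DKK2 had at most 4 in any library. The diagnostic factor NKX2-2 had no count in any library, nor had NPY, SOX2, GLI1 or PPP1R1A. A count of 0 allows up to 8.05 CPM in the shallowest library. Of the defining markers of the tumour type, CD99 was thus present, as described below, while NKX2-2 was at 0.

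Of 13 genes that the fusion represses, 2 were detected and 5 had no count in any library, beside 7949 of 20046 protein-coding genes detected. TPM1, a tropomyosin of stress fibres, had 20, 16 and 28 counts or 48.0, 30.6 and 75.1 CPM, and made up 70.7% of the list. FOXO1, a transcription factor of growth arrest, had 3 counts in each library. TGFBR2, LOX, CCN1, IGFBP3, THBS1 and ZYX had at most 4 counts in any library. DKK1, TGFBI, CDKN1A, SPRY1 and CCN2 had none. The repressed list summed to 72.0, 51.6 and 93.9 CPM.

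**Figure D2:**
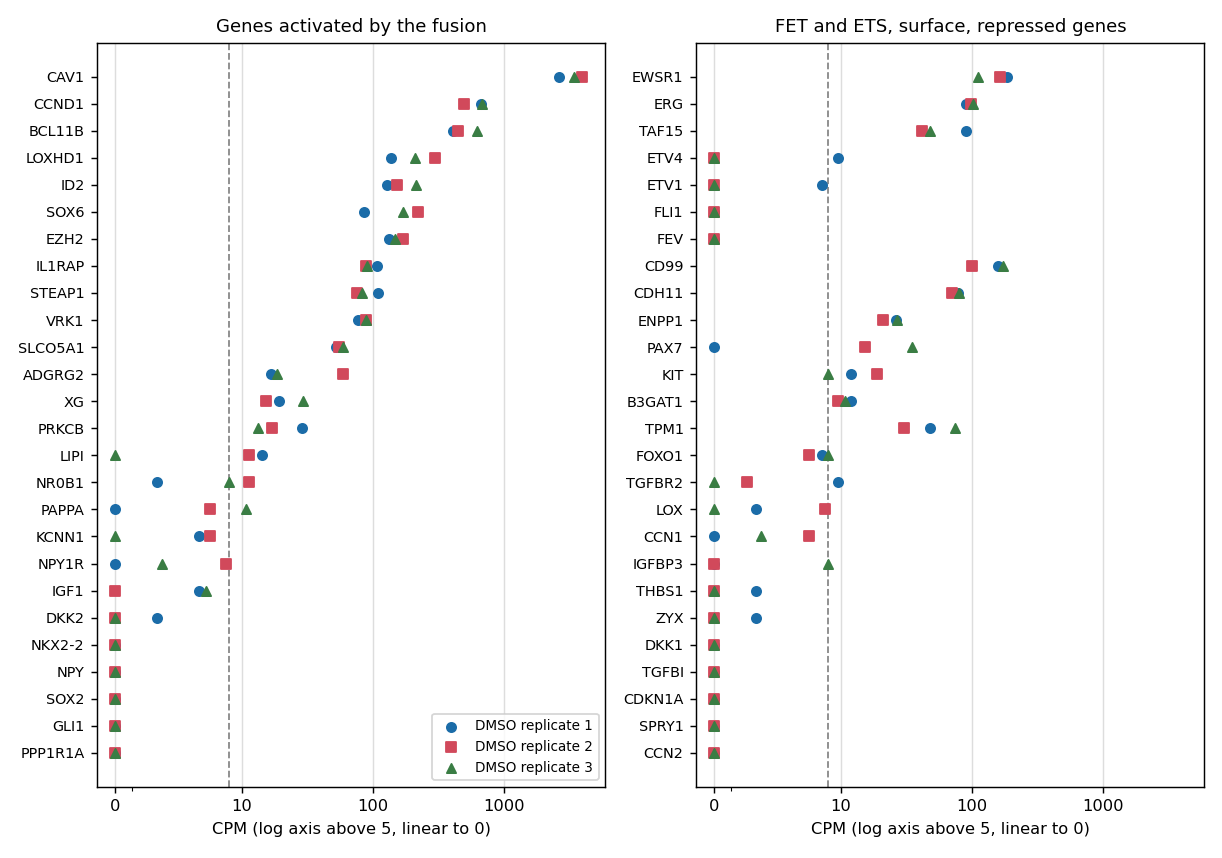
Summed CPM of each member of the Ewing gene lists in the 3 libraries, on an axis that is linear from 0 to 5 and logarithmic above. The left panel holds the 26 activated genes, and the right panel 7 of the FET and ETS genes, then other surface and diagnostic markers, then the 13 repressed genes. The dashed line marks 8.05 CPM, the level of 3 counts in the shallowest library. Most repressed genes sit to its left. Among the activated genes CAV1, CCND1 and BCL11B sit far to its right, while 5 lie at 0 in every library and 7 others were not detected.

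Among 16 surface and diagnostic markers, 11 were detected. CD99, the membrane glycoprotein used in diagnosis, had 66, 53 and 65 counts or 159, 101 and 174 CPM. Its count was spread over 12 listed transcripts, of which ENST00000381192 and ENST00000611428 had the same 18, 16 and 19 counts. CDH11, a mesenchymal cadherin, had 79.3, 70.7 and 80.5 CPM. ENPP1, an ectoenzyme of nucleotide breakdown, had 24.8 ± 3.24 CPM. KIT and B3GAT1 lay at 13.1 ± 5.60 and 10.8 ± 1.23 CPM. PAX7, a transcription factor of muscle precursors that is also used in diagnosis, had 0, 8 and 13 counts and so was not seen in DMSO1.

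Genes of the insulin-like growth factor (IGF) axis split between receptors and ligands. INSR, the insulin receptor, had 325, 410 and 263 counts or 781, 783 and 705 CPM (756 ± 44.2). IGF1R had 87, 122 and 67 counts or 209, 233 and 180 CPM. The values of the libraries were close for both. IGF2R, which clears IGF2, had 43.0 ± 10.8 CPM. The binding proteins IGFBP2 and IGFBP5 had 96.3 ± 9.98 and 46.2 ± 12.1 CPM, while IGFBP3, IGFBP4 and IGFBP6 had at most 4 counts in any library. The ligand genes were near the limit, with 2, 0 and 2 counts for IGF1 and 3, 0 and 0 for IGF2. The adaptors IRS1 and IRS2 had 6.29 ± 4.19 and 7.09 ± 3.19 CPM. In all 5 of 12 members were detected, and the list summed to 1178 ± 70.6 CPM.

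Neural features were carried by few genes. STMN1, a microtubule-destabilising protein of proliferating and neural cells, had 1347, 1051 and 1451 CPM, and UCHL1, a neuronal ubiquitin hydrolase, had 615, 567 and 721 CPM. ENO2, the neuronal enolase, had 57.2 ± 21.7 CPM and SYP, of synaptic vesicles, 16.9 ± 8.90 CPM. In this list of 20, 6 genes were detected and 8, among them NES, NCAM1, SOX10 and CHGA, had no count. Of 18 mesenchymal and matrix genes, 6 were detected, and the whole list summed to 333 ± 27.8 CPM. VIM, the intermediate filament of mesenchymal cells, had the highest mean CPM with 110, 103 and 45.6 CPM, and DMSO3 was the lowest. By the most abundant transcript alone THY1 (52.5 CPM) stood above VIM (26.9 CPM). Summed over transcripts, THY1 had 75.7 ± 2.76, ZEB1 49.9 ± 5.66 and FN1 (fibronectin) 38.5 ± 6.28 CPM. COL1A1 and COL3A1, the fibrillar collagens of fibroblasts and bone, had at most 2 counts in any library.

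Markers of other cells were mostly at or near 0. Of 8 blood and immune markers, 2 were detected, the higher being PTPRC with 8, 3 and 4 counts, and the list summed to 38.4, 15.3 and 21.5 CPM. Of 11 plasma cell markers only CD38 was detected, with 33, 46 and 22 counts, and the other 10 had none, JCHAIN, SDC1 and MZB1 included. Of 8 epithelial markers only KRT8 was detected, with 18, 36 and 8 counts, while EPCAM and KRT18 had none. None of 5 endothelial markers was detected, and PECAM1 held all 7 counts of the list as 2, 3 and 2. Of 12 markers of muscle, fat, liver, pigment cells and bone, PMEL and MYH3 were detected with at most 9 counts, and MYOD1, MYOG and ALB had none.

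Proliferation genes were nearly all present, with 22 of 24 detected, beside 7949 of 20046 protein-coding genes. The whole list summed to 4182, 4230 and 3843 CPM. By CPM, CCND1 was followed by AURKA, a mitotic kinase, with 494 ± 87.0 CPM, CCNB1, cyclin B1, with 465 ± 89.3 CPM and RRM2, a subunit of ribonucleotide reductase, with 388 ± 78.5 CPM. On the scale per kilobase CCNB1 (632) and AURKA (519) stood above CCND1 (417). By the most abundant transcript alone CCND1 had 578, CCNB1 357 and AURKA 72.2 CPM. MKI67, the source of the Ki-67 antigen, had 156 ± 22.2 CPM. CCND2 had 2 counts in every library and CCNE1 had 2 in DMSO2 alone. Among genes that are altered in Ewing sarcoma or govern its cell cycle and survival, the ubiquitin ligase gene MDM2 had 199 ± 56.7 CPM, PARP1 185 ± 31.7, BRCA1 99.1 ± 51.1 and the cohesin gene STAG2 86.9 ± 8.18 CPM. CDKN2A, the p16 locus, had 2, 2 and 3 counts. Of the 15 genes of this list 10 were detected, and the whole list summed to 1242 ± 102 CPM.

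Of 16 oncofetal RNA-binding protein genes and imprinted genes 7 were detected. IGF2BP1, IGF2BP2 and IGF2BP3, which stabilise mRNAs in embryonic and tumour cells, had 271 ± 67.9, 118 ± 30.6 and 85.9 ± 9.18 CPM. SNRPN had 123 ± 46.0, PEG3 99.2 ± 30.8 and PEG10 75.2 ± 21.5 CPM, and LIN28A, a blocker of let-7 processing, had 28.5 ± 10.1 CPM. LIN28B, its relative, had 1, 2 and 2 counts and DLK1 had none. The list summed to 831 ± 125 CPM. In antigen presentation only B2M, the invariant light chain of class I molecules, was detected of 10 genes, with 97, 138 and 111 counts (265 ± 32.4 CPM). 

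Except for the elongation list, the sums of other housekeeping groups differed less between libraries than that of ribosomal protein genes. The highest library of the ribosomal protein sum was 1.52 times the lowest. This ratio was 1.18 for chromatin proteins, 1.13 for chaperones, 1.26 for glycolysis, 1.11 for the cytoskeleton and 1.10 for splicing regulators. It was 1.56 for the elongation list, where it followed EEF1A1 with 3946, 7103 and 3280 CPM. Of the other members, EEF1G and EEF2 were also highest in DMSO2, while TPT1, EEF1D and EEF1B2 were lowest there. Chromatin proteins summed to 18550, 19630 and 21800 CPM with all 16 detected, led by ANP32E, HMGB1, SET and NPM1. Chaperones summed to 18530, 20940 and 19470 CPM with 15 of 16 detected, led by HSPA8, HSP90AA1, HSP90AB1 and HSPD1, the mitochondrial chaperonin, at 1789 ± 306 CPM. The stress-inducible HSPA1A had 1, 0 and 0 counts. Glycolysis summed to 14040, 15120 and 11990 CPM with 13 of 16 detected, and after GAPDH, LDHB and ENO1 came TPI1, triose phosphate isomerase, with 1436 ± 71.0 CPM. Cytoskeletal genes summed to 13440 ± 674 CPM with 13 of 15 detected, and after ACTB, TPM3 and TUBA1B came ACTG1 (gamma actin) at 1360 ± 117 CPM. SR proteins, CLK kinases and hnRNPs, the splicing regulators, summed to 12940 ± 651 CPM with 21 of 22 detected. SRSF6 led them, followed by SRSF11 with 1784 ± 480, HNRNPH1 with 1381 ± 588 and HNRNPK with 1191 ± 390 CPM. HNRNPH1 ran from 774 CPM in DMSO2 to 1947 CPM in DMSO3. By the most abundant transcript alone it had 175 CPM, below HNRNPA1 with 403 CPM.

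All 13 mitochondrially encoded mRNAs were detected, at 0.883%, 0.757% and 0.858% of all counts. MT-ND4 had 1932 ± 259 CPM, MT-CO1 1320 ± 266, MT-CO2 958 ± 182 and MT-ND4L 725 ± 188 CPM. These genes have 1 transcript each, so their sums are not raised by several transcripts. MT-ND4 and MT-ND4L overlap in the genome.

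**Figure D3:**
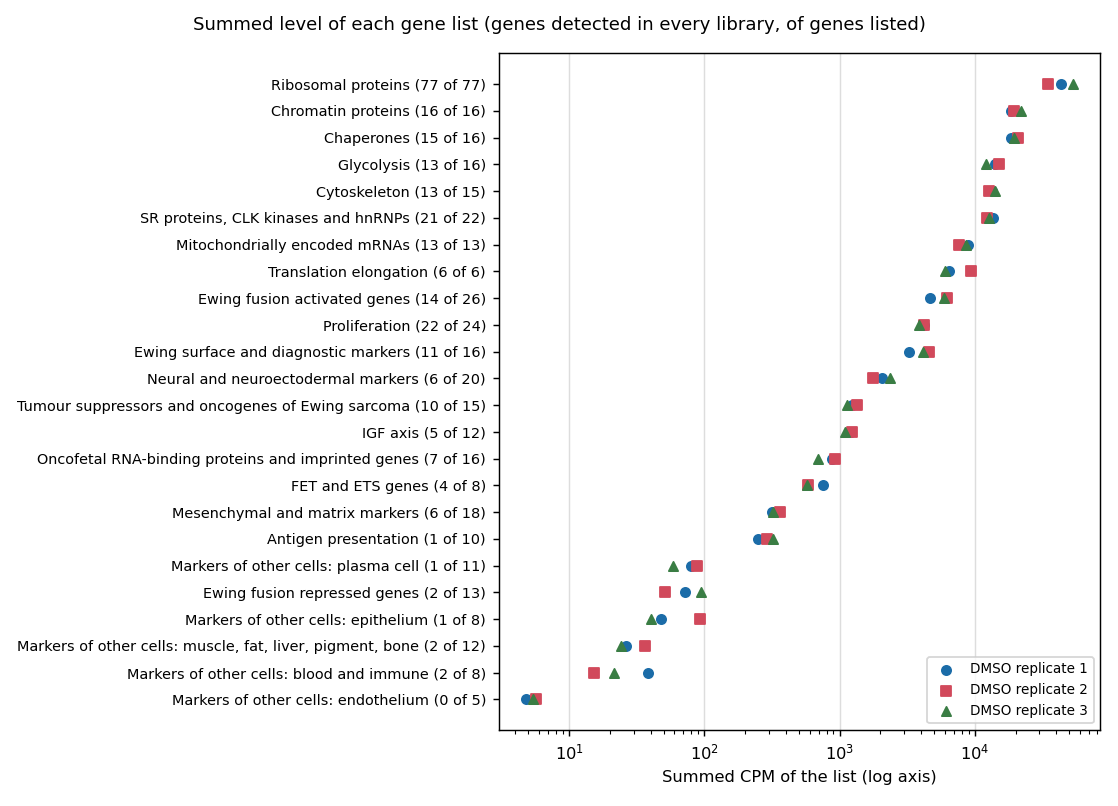
Summed CPM of each gene list in the 3 libraries on a logarithmic axis, with the number of members detected in every library and the number listed beside each name. The long noncoding RNA list, at 0 in all libraries, is not drawn. Ribosomal proteins lie at the top between 34980 and 53240 CPM, and the 5 lists of markers of other cells lie near the bottom, at or below 93.6 CPM, beside the repressed genes at 51.6 to 93.9 CPM.

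By the type of transcript, the counts that matched the annotation fell mostly on protein-coding forms, and the 3 libraries barely differed. Protein-coding transcripts held 76.3%, 76.1% and 76.4% of matched counts (76.3% ± 0.148). A molecule counted on several transcripts would enter several classes, so these shares may depend on the annotated forms of a gene as well as on its molecules. Retained-intron transcripts, which keep an intron and are not translated in full, held 9.35% ± 0.137. Targets of nonsense-mediated decay, the pathway that removes messages with an early stop, held 7.52% ± 0.0493. Transcripts of coding genes without a defined coding sequence held 4.50% ± 0.0433, long noncoding RNAs 0.818% ± 0.0424 and processed pseudogenes 0.655% ± 0.0341. By type of gene, 97.7% ± 0.0996 of matched counts were on protein-coding genes. These shares cover only RNAs in the transcript set mapped to, and how many long noncoding RNAs it held was not given. Identifiers without a match in the annotation held 7.245%, 7.504% and 7.296% of all counts. Among them were the 2 most abundant identifiers of all, ENST00000536684 with 2250, 4444 and 1862 counts and ENST00000600213 with 1847, 3571 and 1610, whose genes are not named here.

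Long noncoding RNAs can be described only in part. None of the 18 named RNAs of the fixed list, MALAT1, NEAT1, GAS5, H19 and MEG3 among them, had a count in any library. Several of these are abundant in most human cells, and 447 of 18866 annotated long noncoding RNA genes had any count, against 13824 of 20046 protein-coding genes. No small nuclear, small nucleolar or microRNA gene had a count. Whether the transcript set mapped to held these RNAs was not given in the sources used here, so each is said only to be listed at 0. The most abundant of those with counts was CCDC144BP, annotated as a pseudogene of a coiled-coil protein gene, with 461, 501 and 451 CPM. ENSG00000290863 followed with 291, 289 and 290 CPM, an SD of 1.08 CPM. MFSD14CP had 253 ± 8.85, ENSG00000290890 241 ± 59.2, ENSG00000290832 233 ± 10.7, TPTEP1 210 ± 47.1, CRYBB2P1 186 ± 35.7 and ENSG00000291194 183 ± 16.9 CPM.

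Isoform use was read from 1760 genes with a mean of 50 or more counts. The most abundant transcript held a median of 37.7% of a gene's count, and the median gene had 4 transcripts with 5% or more. In 234 genes a single transcript passed 5%. Of 1672 genes with at least 2 listed transcripts, the second had a summed count within 5% of the first in 585 (35.0%), the near-equal pattern seen for CAV1. For 62.9% of 1734 protein-coding genes the most abundant transcript was the MANE Select form. DPYSL2 had 49.1% ± 0.117 on ENST00000311151 and 48.9% ± 0.116 on the MANE Select form ENST00000521913, which starts farther upstream. ANP32E had 34.4%, 33.6% and 31.1% on 3 coding transcripts, led by the MANE Select form ENST00000583931. YWHAE differed from these, with 38.2% ± 1.90 on the MANE Select form ENST00000264335, 35.4% ± 1.71 on ENST00000571732 and 24.02% ± 3.13 on the nonsense-mediated decay form ENST00000466227. HSPA8 had 25.9% ± 1.68 on ENST00000534624, and EEF1A1 had 23.6% ± 0.175 on ENST00000309268. The EEF1A1 share was 23.4%, 23.7% and 23.6% in the 3 libraries. Others moved more, such as ENST00000610520 of EEF1A1 with 6.57%, 4.73% and 8.50%. Near-equal shares would follow if a molecule were counted on several of the transcripts it matches, and this was not tested.

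**Figure D4:**
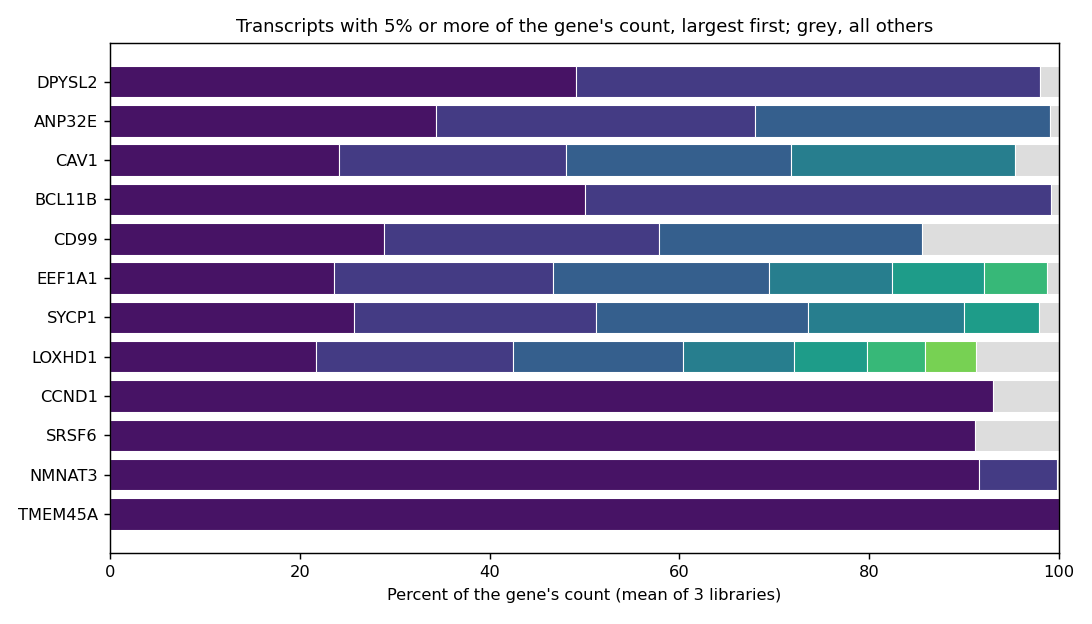
Share of the gene's count on each transcript with 5% or more, as the mean of the 3 libraries, for 12 genes. Each bar adds up to 100%, with the largest share at the left and all other transcripts in grey. DPYSL2, ANP32E, CAV1 and BCL11B split into nearly equal parts, whereas CCND1, SRSF6, NMNAT3 and TMEM45A lie mostly on 1 transcript.

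For 185 of the 1734 protein-coding genes (10.7%) the most abundant transcript was not of a protein-coding type, 113 of them of the retained-intron and 39 of the nonsense-mediated decay type. By the CPM summed over the gene HSP90B1, the chaperone of the endoplasmic reticulum, was the highest, with 202, 207 and 162 counts on the retained-intron transcript ENST00000548462 and 202, 202 and 162 on the coding MANE Select form, which cannot be ranked. ENSG00000255508, CCT8, GNAS, TMEM45A, STIP1, HNRNPU and DAZAP2 followed. By the level of the transcript itself TMEM45A (958 ± 35.6 CPM) and ENSG00000255508 (525 ± 43.2 CPM) stood above HSP90B1 (438 ± 45.0 CPM). CCT8, a subunit of the TRiC chaperonin, and DAZAP2 again had near-equal counts on coding and other forms. GNAS, the stimulatory G protein gene, had 60, 74 and 52 counts on the retained-intron form ENST00000476196 against 25, 37 and 27 on the MANE Select form. STIP1, a co-chaperone, had 138, 159 and 176 counts on the 528-base retained-intron form ENST00000355603 and 101, 130 and 69 on the MANE Select form, with the widest gap in DMSO3. TMEM45A, a membrane protein, had every count, 384, 520 and 357, on the retained-intron form ENST00000489060 at chr3:100568924-100577444. Of the 31-base words of that transcript, 46.7% occur in 600 other genes, NMNAT3 most of all, so the level of TMEM45A is uncertain.

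Libraries of 1 group should differ by no more than counting error if they were repeated draws from 1 pool. A chi-square test of each gene against the library totals asked where they differed by more. It sets the libraries against counting error alone, so calls can arise between any separate samples, and their source was not tested. Of 6361 genes with a mean of 10 or more counts, 1740 (27.4%) passed a Benjamini-Hochberg adjusted p of 0.05. Without DMSO1 1189 of 6418 passed (18.5%), without DMSO2 787 of 5961 (13.2%) and without DMSO3 846 of 6690 (12.65%). A molecule counted on several transcripts would enter a gene's sum more than 1 time and so raise this statistic, and how far it did was not tested. Of 3843 genes tested on their most abundant transcript alone, where counts are also lower, 231 (6.01%) passed. The common biological coefficient of variation estimated by edgeR was 0.216 for genes and 0.167 for transcripts. Across genes with 10 or more counts on average, log2(CPM + 1) correlated with Pearson's r of 0.862 between DMSO1 and DMSO2, 0.850 between DMSO1 and DMSO3 and 0.834 between DMSO2 and DMSO3, where genes are not independent replicates. The median absolute difference was 0.392, 0.409 and 0.468 on the log2 scale.

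The 5 genes with the largest chi-square per degree of freedom were EEF1A1, HSPA8, CCAR1, ACTB and YWHAE. CCAR1, a regulator of cell cycle and apoptosis, had 190, 295 and 584 counts or 456, 564 and 1566 CPM, and DMSO3 stood far above the others. EEF1A1 and HSPA8 were highest in DMSO2, and ACTB and YWHAE were lowest there. The share called rose with the count, from 27.4% of all genes tested to 47.3% of the 1760 with a mean of 50 or more. Of the ribosomal protein genes 64 of 77 passed, as did 10 of 15 chaperone, 11 of 16 chromatin and 13 of 21 tested splicing regulator genes, and 5 of 19 proliferation genes. These lists differ in level and in transcripts per gene, so the counts are descriptions. In the Ewing activated list 7 of 12 tested genes passed, in the FET and ETS list TAF15 alone of 4, and in the IGF axis none of 5.

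Transcript length moved with these differences. The median length of the counted transcripts, weighted by count, was 2690 bases in DMSO1, 2855 in DMSO2 and 2644 in DMSO3. Among the called genes, the 635 that were lowest in DMSO2 had a median transcript length of 2059 bases, and the 586 that were highest there had 3698 bases, against 3349 for all genes tested. In 489 genes with a transcript under 1000 bases, the median difference of DMSO2 from DMSO3 was -0.43 on the log2(CPM + 1) scale, and 31.1% of them were higher in DMSO2. In 651 genes with transcripts of 8000 bases or more the median difference was 0.15, and 63.0% were higher in DMSO2. Without ribosomal protein genes the medians were -0.34 in 450 genes under 1000 bases and 0.15 in the longest. Ribosomal protein transcripts had a median of 970 bases and ranged from 352 to 7573. The part of length in the differences between libraries was not tested.

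**Figure D5:**
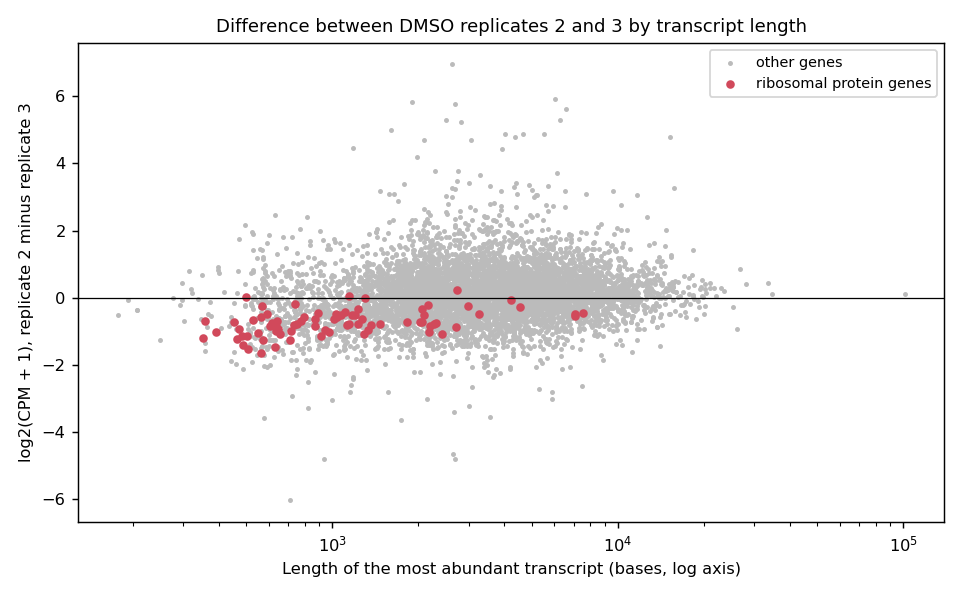
Difference in log2(CPM + 1) between DMSO2 and DMSO3 (vertical axis) for each of the genes tested, by the length of its most abundant transcript in bases (horizontal axis, logarithmic). Ribosomal protein genes, in red, sit mostly at the left and below 0, and the cloud of other genes, in which the median is -0.34 under 1000 bases and 0.15 at 8000 or more, rises slightly towards longer transcripts.

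Abundant genes also had transcripts of lower GC content. Among protein-coding nuclear genes, the most abundant transcripts of the 100 highest had a median of 42.5% GC and 3090 bases. Those ranked from 2001 to 6000 had 45.4% GC and 3337 bases, and those after 6000 had 50.4% GC and 2920 bases. These values describe the libraries, and the part of amplification and sequencing in them was not tested.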

How the data were processed

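Counts of UMIs per transcript were deposited by the authors without normalization, 1 library per file. Per the study's methods for nanopore reads, these were mapped with minimap2 to hg38 transcripts of Ensembl release 98, keeping up to 3 secondary alignments, and deduplicated by UMI. The submitters' processing notes name minimap2 2.22 and UMI-tools, and which deduplication made these files was not given in the sources used here. Identifiers without version were paired with GENCODE release 44 (69698 of 75363 matched, 92.1% of these with the same version). Transcripts absent from a library's file were set to 0. Counts were divided by the library total to give CPM and summed to genes. Words of 31 bases were compared among GENCODE transcripts on either strand.

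Differences between libraries were tested by a chi-square of each gene's counts against library totals (Benjamini-Hochberg adjustment), and dispersion with edgeR 4.0.16 (intercept only, filterByExpr) in R 4.3.3. On simulated Poisson counts of 6361 genes, 200 of them changed 2-fold in 1 library, the chi-square test recovered 55.0% of the changed genes, and 2.655% of its calls were wrong, a check of the calculation that does not cover molecules counted on several transcripts. Other steps used Python 3.11.15 and scipy 1.17.1. Alternatives were TMM and DESeq2 1.42.0 size factors, other minimum counts and denominators, values per kilobase, the most abundant transcript, and leaving out each library. Named in the text were the 25 most abundant genes, 8 long noncoding RNA genes, 8 coding genes led by another transcript type, the 5 genes with the largest chi-square, and gene lists with their 4 most abundant members, or all members for the Ewing and IGF lists. Other genes named were chosen after their values were seen. Genes of the Y chromosome and XIST were left out, and some items are not reported here. Members and lists were chosen with earlier results of these data known. The lists were drawn up from general knowledge. A table of the PCR cycle series has 4 columns of samples whose names could not be paired with labels, and these were not used. The libraries of other samples were not used here, since no contrast was made.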

Additional observations from a re-analysis of the deposited data

How the results depend on the processing

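Depth limited what could be seen, since 3 counts stood for 5.73 to 8.05 CPM, and the 3 libraries limited every SD. The count of detected genes was 10730 with a minimum of 1 count, 6875 with 5, 4924 with 10 and 7964 when estimated at the depth of the shallowest library, and 8654 to 9389 when 1 library was left out. The 25 most abundant genes summed to 82180 CPM, to 28190 CPM when the most abundant transcript replaced the sum, and to 80080 to 84050 CPM without 1 library. Protein-coding transcripts held 70.7% with all counts as the denominator, and 76.2% to 76.4% without 1 library. The mitochondrial share was 0.808% to 0.871% without 1 library. The genes called by the chi-square test numbered 833 with a mean of 50 or more counts (47.3% of those tested), 647 of 8321 transcripts, and 231 on the most abundant transcript, an alternative chosen after seeing the data. They numbered 787 without DMSO2, 846 without DMSO3 and 1189 without DMSO1. The coefficient of variation ran from 0.195 to 0.242 without 1 library and was 0.297 without a filter. The median share of the most abundant transcript was 40.1% from 20 counts, 35.3% from 100 counts and 37.2% to 38.1% without 1 library. Of 17 single genes followed, none moved by more than its SD under TMM, DESeq2 size factors or a total without mitochondrial transcripts, 15 did with the most abundant transcript and 11 per kilobase. No paired analysis was possible because the 3 libraries form 1 group and no contrast was made.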
